A study of Mus musculus with 6 samples.

Results

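The genes described are those for the proteins of the mitochondrial ribosome, chosen by name as every gene of the deposited table whose symbol begins with Mrpl or Mrps followed by a digit. The rule found 77 genes of the 14617 in the table, 48 of the large subunit (Mrpl) and 29 of the small subunit (Mrps). The mice were PRMT7-/- (KO), which lack PRMT7, an arginine methyltransferase that adds methyl groups to other proteins, and PRMT7+/+ (WT). All were C57BL/6 and 8 months old, and the labels give 3 mice of each genotype. RNA was sequenced from the tibialis anterior, a fast muscle of the lower leg. Which exons of the gene were deleted is not named in the labels.

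Mitochondrial ribosomes sit in the mitochondrial matrix and translate the few messages of mitochondrial DNA, which encode core subunits of the respiratory chain and of ATP synthase. Their ribosomal RNAs come from mitochondrial DNA, whereas all of their proteins are encoded in the nucleus, made in the cytosol and imported. The large subunit joins amino acids and passes the new chain through an exit tunnel at the inner membrane, and the small subunit holds the message and reads its codons. Some of the proteins have counterparts in bacterial ribosomes and others are specific to mitochondria.

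The table gives genotype means, and every mean resolved into whole counts of 2 libraries per genotype, which cannot be tied to individual mice and are numbered by their scaling factor, the larger first. Summed over the table, the KO libraries had 24814798 and 22849273 counts and the WT libraries 23695468 and 22629288. No column header names a genotype, and every direction below rests on reading the first column of means as WT and the second as KO, as in the name of the table. Prmt7 itself had 706 and 718 normalized counts in KO libraries, against 885 and 844 in WT libraries, with an FDR of 0.587 in the authors' deposited table, so its level alone does not settle that reading. Xist, the RNA that coats the inactive X chromosome, had 1.82 and 1.03 normalized counts in KO libraries and 10800 and 11546 in WT libraries. The Y-linked genes Ddx3y, Eif2s3y, Kdm5d and Uty had 0 counts in KO library 1 and in both WT libraries, and 2824, 1378, 427 and 715 normalized counts in KO library 2. No KO library therefore had the sex-chromosome expression of the WT libraries, which was that of females. KO library 2 had that of a male, and KO library 1 had neither Xist at the WT level nor Y-linked counts. The labels give no sex, and every KO over WT value below may hold a difference of sex, which cannot be told apart from genotype. All 77 genes lie on autosomes. The markers of muscle fibres were high in each library, with Acta1 at 750946 and 884342 normalized counts in KO libraries and 708866 and 773481 in WT libraries.

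Most mitochondrial ribosomal protein genes had a lower mean in KO muscle, each by a small amount, and few passed a test. The log2 ratio of KO over WT was below 0 for 72 of 77 genes, with a median of -0.23 and a range of -0.60 to 0.11, while 49.1% of all listed genes were below 0 and their median was 0.0061. Among the 7590 listed genes in the same range of mean level, 56.8% were below 0 and the median was -0.032. Scaled to total counts without the 20 most abundant genes, which moved the median of all genes to 0.12, 57 of the 77 were below 0 and the median was -0.12. Without KO library 1, 51 of the 77 were below 0, against 7306 of the 14617 listed genes, and the median was -0.10. Without KO library 2, 77 were below 0, against 7349 of the listed genes, and the median was -0.37. Past an FDR of 0.05 in the authors' deposited table, 2 of the 77 genes fell, Mrpl37 and Mrpl45, and 0 rose. Over all listed genes 2.71% passed it in either direction, 1.7% lower and 1.01% higher in KO, so the share of 2 in 77 lies near the background. At an unadjusted p under 0.05 in the authors' deposited table, 20 of the 77 genes were lower in KO and 0 higher, against 6.06% of all listed genes lower and 5.08% higher. Of the 7590 genes in the same range of mean level, 650 (8.56%) were lower and 366 higher.

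Promoters of 3 genes with the lowest and 3 with the highest log2 ratios are shown first, because they are the ends of the set and let the control regions of the most and least lowered genes be compared. Genes that share a promoter region with a neighbour or that do not have exactly 1 promoter window were passed over, Mrpl4 among them. Each run is the 200 bases before the RefSeq start of the gene on its own strand in GRCm38.p6, 5′ to 3′, and capitals mark matches to 3 motifs of factors tied to mitochondrial genes.
Mrpl34, chr8:71464726-71464925, plus strand: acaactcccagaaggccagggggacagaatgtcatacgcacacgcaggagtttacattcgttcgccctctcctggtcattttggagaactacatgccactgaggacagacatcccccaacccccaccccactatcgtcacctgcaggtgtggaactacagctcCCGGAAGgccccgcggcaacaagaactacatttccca
Mrpl45, chr11:97315516-97315715, plus strand: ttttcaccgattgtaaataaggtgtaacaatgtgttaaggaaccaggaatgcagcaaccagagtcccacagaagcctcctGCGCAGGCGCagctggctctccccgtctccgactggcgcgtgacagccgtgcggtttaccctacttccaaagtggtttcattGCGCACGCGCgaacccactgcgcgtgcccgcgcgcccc
Mrpl37, chr4:107066867-107067066, minus strand: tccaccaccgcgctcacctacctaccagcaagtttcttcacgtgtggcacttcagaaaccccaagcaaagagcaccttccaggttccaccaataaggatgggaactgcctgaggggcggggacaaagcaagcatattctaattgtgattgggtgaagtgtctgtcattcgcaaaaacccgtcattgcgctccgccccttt
Mrps17, chr5:129715297-129715496, plus strand: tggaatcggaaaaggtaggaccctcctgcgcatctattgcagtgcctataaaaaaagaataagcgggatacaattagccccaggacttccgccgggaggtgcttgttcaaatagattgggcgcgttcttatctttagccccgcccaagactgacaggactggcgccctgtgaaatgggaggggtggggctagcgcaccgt
Mrpl52, chr14:54426709-54426908, plus strand: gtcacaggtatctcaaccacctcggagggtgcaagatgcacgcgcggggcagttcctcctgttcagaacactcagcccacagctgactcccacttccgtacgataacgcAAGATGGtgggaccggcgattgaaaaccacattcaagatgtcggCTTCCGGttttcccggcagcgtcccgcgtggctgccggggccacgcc
Mrpl23, chr7:142532832-142533031, plus strand: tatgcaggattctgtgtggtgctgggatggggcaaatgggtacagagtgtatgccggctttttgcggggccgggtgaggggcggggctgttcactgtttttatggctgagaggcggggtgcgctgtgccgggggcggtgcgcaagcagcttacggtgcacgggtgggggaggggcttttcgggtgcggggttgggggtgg

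The 3 motifs, matched on either strand, were a palindrome of GC pairs for nuclear respiratory factor NRF1, CCGGAAG for ETS factors such as GABPA, and AAGATGG for YY1. These factors are known to bind promoters of nuclear genes for mitochondrial proteins. In the stretch shown, Mrpl45 held 2 matches for NRF1, and Mrpl34 held 1 for ETS factors. Mrpl37 held none there, and neither did Mrps17 and Mrpl23 at the other end. Mrpl52, among the least lowered, held 1 match each for ETS factors and YY1. In the bases after the start, which are not shown, Mrpl37 had a YY1 match, Mrpl45 a further NRF1 match and Mrpl52 a further ETS match.

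Among the large-subunit proteins, Mrpl45 and Mrpl37 passed the FDR, and neither has a counterpart in bacterial ribosomes. Mrpl45 lies at the mouth of the exit tunnel and holds the ribosome at the inner membrane. It had 1235 and 1518 normalized counts in KO libraries and 2093 and 1864 in WT libraries. Both KO libraries were below both WT libraries, the log2 ratio was -0.52, and the FDR was 0.0316 in the authors' deposited table. In a limma fit to the recovered library values the difference was -0.53 ± 0.13 (log2 of normalized count plus 1, SE, n = 2 libraries each) with an adjusted p of 0.093. The gene spans chr11:97315716-97329920 in mm10.

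Mrpl37 had 1705 and 1907 normalized counts in KO libraries and 2534 and 2507 in WT libraries. The groups did not overlap, and the WT libraries lay closer together than the KO libraries. The log2 ratio was -0.48 with an FDR of 0.0453 in the authors' deposited table, and limma gave -0.48 ± 0.10 (SE, n = 2 libraries each) with an adjusted p of 0.0731. The gene spans chr4:107055874-107066866 in mm10. With all libraries, limma called 0 of the 77 genes at an adjusted p under 0.05, where 0.889% of the 14053 genes tested were called, and 28 were lower at an unadjusted p under 0.05, where 10% of all genes tested were. These p-values reflect how far libraries of one genotype lay apart, in the gene itself and, by moderation, in the other genes tested. That spread may be technical.

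The next genes of the large subunit had log2 ratios of the same size without passing the FDR. Mrpl34, a conserved protein of the subunit core, had the lowest log2 ratio of the set. It had 605 and 862 normalized counts in KO libraries and 1143 and 1078 in WT libraries. Its log2 ratio was -0.60 at an FDR of 0.0929 in the authors' deposited table. Its KO libraries were both below the WT libraries but lay far apart. Mrpl4, whose bacterial counterpart reaches into the wall of the exit tunnel, had 1111 and 1236 normalized counts in KO libraries and 1614 and 1674 in WT libraries. Its log2 ratio was -0.49 with an FDR of 0.0593 in the authors' deposited table, and its limma adjusted p of 0.0708 was the lowest of the 77. Mrpl38, a mitochondria-specific protein of the central protuberance, had 929 and 1116 normalized counts in KO libraries and 1360 and 1477 in WT libraries, again without overlap.

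Proteins known to line or surround the exit tunnel did not share one value. Beside Mrpl4 and Mrpl45, the log2 ratio was -0.30 for Mrpl44, -0.29 for Mrpl22, -0.06 for Mrpl24 and 0.11 for Mrpl23. Mrpl23 was the highest of the set, with 1266 and 1642 normalized counts in KO libraries and 1218 and 1486 in WT libraries, and these groups overlapped. In the stalk, where translation factors dock, Mrpl10 had a log2 ratio of -0.33, Mrpl11 of -0.25 and Mrpl12 of -0.34. Mrpl12, which is also known to bind the mitochondrial RNA polymerase, had 3350 and 4689 normalized counts in KO libraries and 5208 and 4997 in WT libraries, with both KO libraries below. In the central protuberance, Mrpl38 had a log2 ratio of -0.47, Mrpl46 of -0.37, Mrpl40 of -0.17 and Mrpl48 of -0.07. None of these apart from Mrpl45 passed the FDR.

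In the small subunit 0 of 29 genes passed the FDR in either direction. Mrps25, specific to mitochondria, had the lowest log2 ratio of the subunit. It had 509 and 574 normalized counts in KO libraries and 753 and 709 in WT libraries, a log2 ratio of -0.43 and an FDR of 0.22 in the authors' deposited table. The groups did not overlap. Mrps27, which carries pentatricopeptide repeats, a fold that binds RNA, had 854 and 947 normalized counts in KO libraries and 1202 and 1104 in WT libraries, with a log2 ratio of -0.36. Mrps12, whose bacterial counterpart helps to form the decoding centre, had 690 and 863 normalized counts in KO libraries and 816 and 851 in WT libraries, and its groups overlapped. Mrps36 carries a ribosomal name but is known as a subunit of the 2-oxoglutarate dehydrogenase complex. It had 1352 and 2023 normalized counts in KO libraries and 2172 and 2243 in WT libraries.

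**Figure D1:**
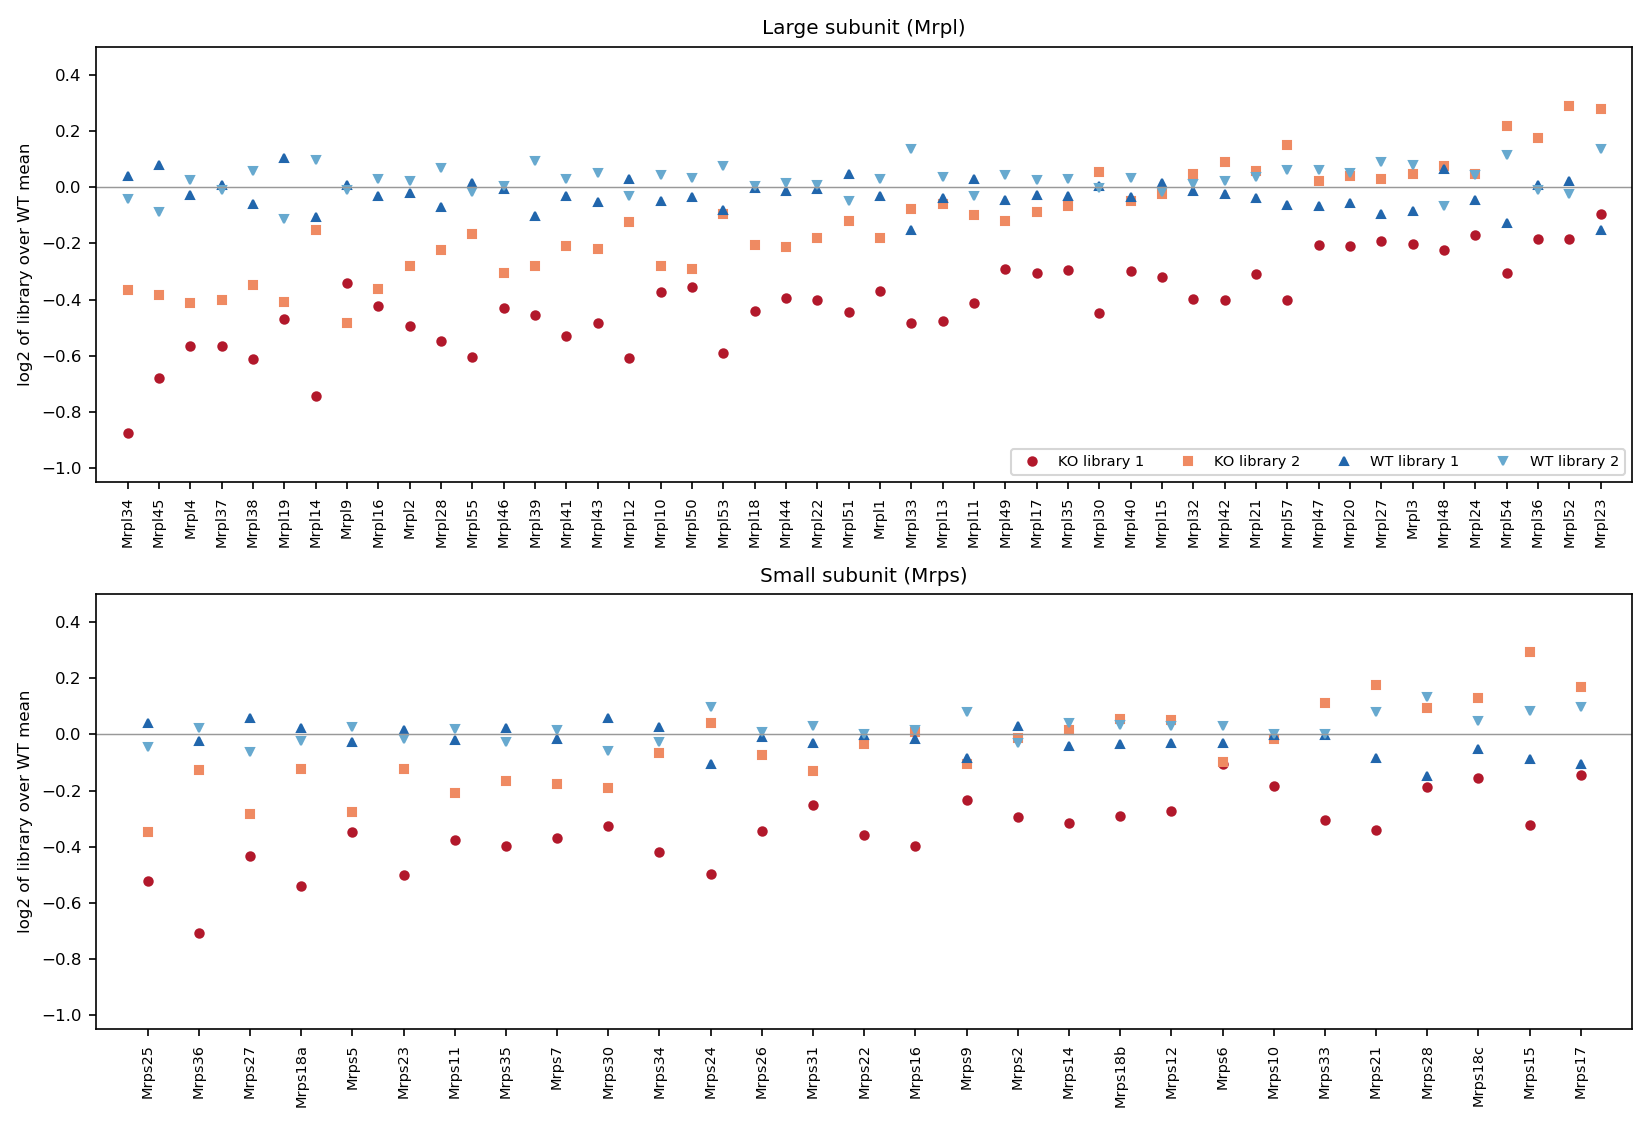
Each of the 77 genes in its 4 libraries, as log2 of the normalized count in a library over the WT mean (vertical axis), ordered by the log2 ratio of KO over WT within the large subunit (upper panel) and the small subunit (lower panel). KO library 1 lies below KO library 2 for 76 of the 77 genes (49% of all listed genes), and both lie below the WT libraries for 49 of the 77 (25.7% of all listed genes).

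The subunits, set side by side, differed little in their medians. The median log2 ratio was -0.27 over 48 large-subunit genes and -0.19 over 29 small-subunit genes, a difference of -0.08. Ratios were below 0 for 45 of 48 large-subunit genes and 27 of 29 small-subunit genes. At an unadjusted p under 0.05 in the authors' deposited table, 18 of 48 large-subunit genes (37.5%) and 2 of 29 small-subunit genes (6.90%) were lower. The share over all listed genes was 6.06%, so by this measure alone that of the small subunit lay near the background. At an unadjusted p under 0.05 in limma, 21 of 48 large-subunit and 7 of 29 small-subunit genes were lower. The share over all genes tested in limma was 10%. Mrps18a and Mrps30 carry small-subunit names but are placed in the large subunit in structures of the mammalian ribosome, and with them moved the medians were -0.27 and -0.18. The summed normalized counts of large-subunit genes were 2.14 and 2.12 times those of small-subunit genes in KO libraries, and 2.24 and 2.22 times in WT libraries. These ratios did not overlap between the genotypes, and the difference between the subunits was not tested.

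The genes were also split by structural class, with Mrps18a and Mrps30 counted in the large subunit and Mrps36 left out. In this split Mrps18a and Mrps18b were classed as specific to mitochondria and Mrps18c as conserved. The 20 large-subunit proteins specific to mitochondria had a median log2 ratio of -0.31 and held both called genes. The 30 conserved large-subunit proteins had a median of -0.26. Of the small subunit, 10 mitochondria-specific proteins had a median of -0.22 and 16 conserved proteins one of -0.12. Both KO libraries were below both WT libraries for 15 of 20 mitochondria-specific and 19 of 30 conserved large-subunit genes, and for 8 of 10 mitochondria-specific and 6 of 16 conserved small-subunit genes. With Mrps36 and with subunits by name, this held for 49 of 77 genes (63.6%), 32 Mrpl and 17 Mrps, against 25.7% of all listed genes, and 33% of those in the same range of mean level. Both KO libraries were above both WT libraries for 0 of the 77 genes and for 25.8% of all listed genes.

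The size of the difference depended on which KO library was read. Relative to the average of the WT libraries, KO library 1 had a median of -0.37 over the 77 genes on the log2 scale and KO library 2 one of -0.10. KO library 1 was below both WT libraries for 76 genes, against 38.3% of all listed genes, and KO library 2 for 49 (63.6%), against 38.6%. KO library 1 was below KO library 2 for 76 of the 77 genes and for 49% of all listed genes. The summed normalized counts of the set were 81077 and 101422 in KO libraries and 105975 and 109170 in WT libraries, so both KO sums were lower but the KO libraries lay further apart. The median absolute log2 difference between libraries of one genotype was 0.28 in KO and 0.06 in WT. Over all listed genes it was 0.17 in KO and 0.14 in WT. Without KO library 2, limma called 11 of the 77 genes, all lower in KO, against 1.21% of all genes tested. These were Mrpl34, Mrps36, Mrpl14, Mrpl45, Mrpl55, Mrpl38, Mrpl4, Mrpl37, Mrps18a, Mrpl53 and Mrpl12. Without KO library 1 it called 0, and 51 of 77 log2 ratios were below 0. Mrpl9, a conserved protein of the large subunit, was the one gene lower in KO library 2, with 1713 and 1555 normalized counts in KO libraries and 2186 and 2159 in WT libraries.

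Some lists of markers of muscle fibres and of other cell types differed between the genotypes, and most differed between the KO libraries. Over 8 adipocyte markers, the median log2 value relative to WT was 1.67 for KO library 1 and -0.44 for KO library 2. Their summed normalized counts were 23054 and 15773 in KO libraries and 16472 and 17692 in WT libraries. None of the 8 passed the FDR, and the genotypes overlapped for 7 of them. Over 8 Schwann cell markers the medians were 1.38 and 0.51, with none past the FDR. Their sums were 24524 and 11893 in KO libraries and 8412 and 8845 in WT libraries. Over 8 fibroblast markers the medians were 0.63 and 0.28, with 3 higher past the FDR. Their sums were 397928 and 306416 in KO libraries, against 251863 and 215991 in WT libraries. The 10 muscle fibre markers had medians of 0.11 and 0.40, and 2 of them were higher past the FDR. Myh4, the fastest myosin heavy chain, had 444884 and 373640 normalized counts in KO libraries and 232372 and 277492 in WT libraries (FDR 0.0113 in the authors' deposited table). For Mybpc2, a fast-fibre myosin-binding protein, the authors' deposited table gave an FDR of 0.0464. Endothelial markers were lower in both KO libraries, with 7 of 8 log2 ratios below 0 and medians of -0.17 and -0.21. Their sums were 34937 and 33469 in KO libraries and 40988 and 40173 in WT libraries, and Kdr, a receptor for vascular growth factor, was lower with an FDR of 0.00782 in the authors' deposited table. Over 8 tendon markers the medians were 0.48 and 0.18, with 1 higher past the FDR. Over 8 macrophage markers the medians were 0.39 and 0.07, with none past it, and the genotypes overlapped for 7 of them. In bulk muscle, fewer cells of a type and less RNA per cell cannot be told apart, and the part of these markers in the lower mitochondrial ribosomal messages was not tested.

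Transcript length moved with the gap between the KO libraries as well. Across the 77 genes, Spearman's rho between the length of the principal transcript and the log2 ratio of KO library 1 over KO library 2 was 0.449, and it was 0.32 across 13924 listed genes. For WT library 1 over WT library 2 it was 0.291 and 0.108. With the log2 ratio of KO over WT it was -0.142 across the 77 genes and -0.0797 across 13920 listed genes. Genes share libraries, so these values describe the libraries and have no test. In listed genes with a transcript of at most 750 bases, KO library 1 was lower than KO library 2 by a median of -0.32, and the 12 mitochondrial ribosomal genes of that length had a median of -0.49. Above 4000 bases the medians were 0.10 over listed genes and -0.23 over 9 mitochondrial ribosomal genes. The part of length in the difference between the genotypes was not tested.

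**Figure D2:**
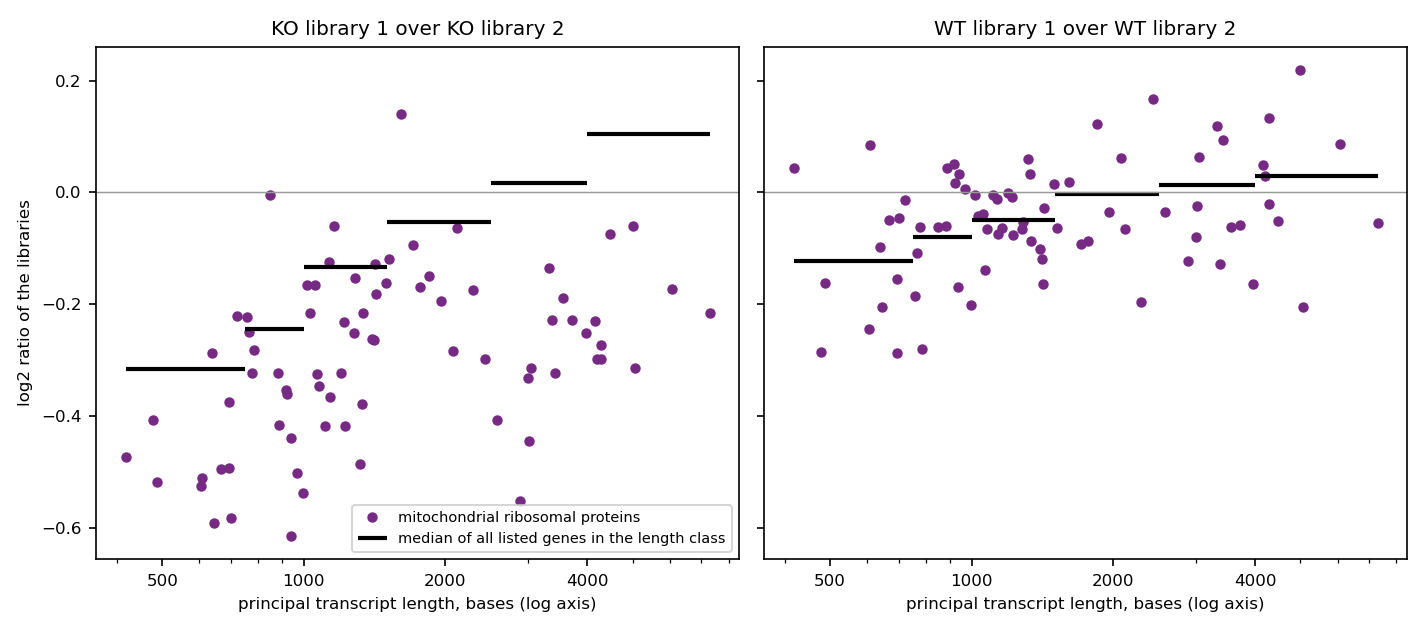
Log2 ratio of the 2 libraries within KO (left) and within WT (right) against the length of the principal transcript in bases on a log axis, for the 77 mitochondrial ribosomal genes (points), with the median of all listed genes in each length class (bars). Within KO 76 of 77 points lie below 0, and the bars rise with length. Within WT the points have a median of -0.05. The WT bars also rise, from -0.12 at up to 750 bases to 0.03 above 4000.

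Per length of message, the set covered a wide range. Mrpl42, a mitochondria-specific protein, was highest with 8380 normalized counts per kilobase of principal transcript in KO and 9198 in WT. Mrps21 followed with 4423 in KO and 4606 in WT, and Mrpl33 with 3456 in KO and 4156 in WT. Mrps25 was lowest with 89.2 in KO and 120 in WT, below Mrps35 with 130 in KO and 158 in WT. The order at these ends was the same in both genotypes. Without division by length, Mrpl42, Mrpl12 and Mrpl51 had the highest levels and Mrps6, Mrps11 and Mrps22 the lowest. Mrpl42 had 4634 and 6529 normalized counts in KO libraries and 6023 and 6229 in WT libraries, and its groups overlapped. Mrpl51 had 2666 and 3333 normalized counts in KO libraries and 3743 and 3508 in WT libraries, with both KO libraries below. Mrps6 had 319 and 320 normalized counts in KO libraries and 335 and 350 in WT libraries, with the KO libraries just below. Across the 77 genes, Spearman's rho between mean level and log2 ratio was -0.151.

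**Figure D3:**
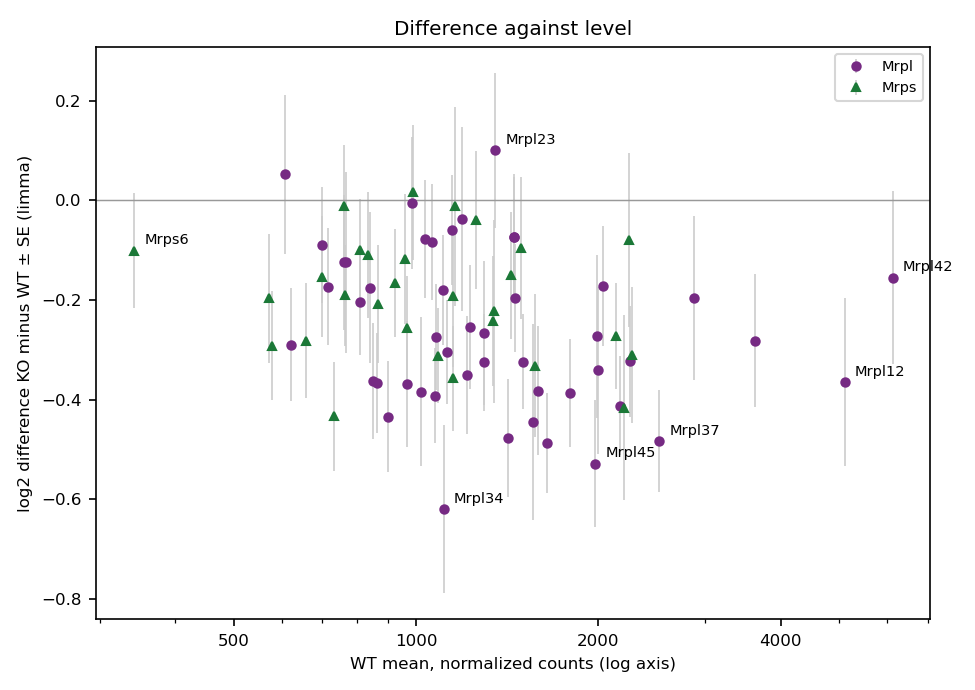
Difference KO minus WT in the limma fit (log2 of normalized count plus 1, bars ± SE, n = 2 libraries each) against the WT mean in normalized counts on a log axis, for 48 Mrpl genes (circles) and 29 Mrps genes (triangles). Most points lie between 0 and -0.5 at every level, and Mrpl34 and Mrpl23 are the ends.

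At the upper end of the set, 5 genes had a log2 ratio above 0. These were Mrpl36, Mrps15, Mrps17, Mrpl52 and Mrpl23, with values of 0.0061 to 0.11, and in each of them the libraries of the genotypes overlapped. Mrpl52, a mitochondria-specific protein with the shortest principal transcript of the set (418 bases), had 534 and 741 normalized counts in KO libraries and 616 and 598 in WT libraries. Mrps15 had 929 and 1422 in KO libraries and 1093 and 1229 in WT libraries, so that KO library 1 was lowest and KO library 2 highest. Mrps17 had 895 and 1113 in KO libraries and 920 and 1060 in WT libraries, in the same order. Just below 0 stood Mrps18c, Mrpl54, Mrps28, Mrpl24 and Mrps21, with log2 ratios of -0.0054 to -0.06.

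On the coordinates of the table, 10 of the 77 genes overlap another listed gene, and no source used here states whether reads were counted by strand, so their counts are uncertain. Mrps6 overlaps Slc5a3 on the same strand over 29138 bases, and Mrps25 shares 3536 bases with Nr2c2 on the opposite strand. The others are Mrpl19 with Gcfc2, Mrpl24 with Rrnad1, Mrpl41 with Dph7, Mrpl48 with Rab6a, Mrpl49 with Syvn1, Mrpl53 with Ccdc142, Mrps23 with Cuedc1 and Mrps27 with 6430562O15Rik. None of these neighbours passed the FDR. Mrpl37 and Mrpl45 overlap no listed gene.

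Many of the genes start beside another gene that runs the opposite way. An opposite-strand start within 500 bases was found for 22 of 77 genes (28.6%), against 11.4% of 13924 listed genes with a strand in GENCODE. Pairs that overlap at their starts, such as Mrpl48 and Rab6a, were counted along with those that diverge. Mrpl46 and Mrps11, of different subunits, are each other's neighbour, with starts 42 bases apart, and their log2 ratios were -0.37 and -0.29. Mrpl46 had 641 and 699 normalized counts in KO libraries and 860 and 867 in WT libraries. Mrps11 had 446 and 500 in KO libraries and 570 and 586 in WT libraries, and neither gene's groups overlapped. The other 20 neighbours had a median log2 ratio of 0.0047, with 10 below 0 and 0 past the FDR. Ptcd2, a mitochondrial RNA-binding protein beside Mrps27, had a log2 ratio of -0.43, and Ndufb5, a complex I subunit beside Mrpl47, also one of -0.43. Tmem63b beside Mrpl14 had -0.38 and 2610507I01Rik beside Mrpl55 had -0.26, while Sars2, a mitochondrial tRNA synthetase beside Mrps12, had -0.13. Psma2, a proteasome subunit beside Mrpl32, had 0.03, and Fau, a cytosolic ribosomal protein beside Mrpl49, had 0.13.

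Promoter windows of 300 bases, 250 before and 50 after the RefSeq start in GRCm38.p6, were found for 68 of the 77 genes, 74 windows in all. The ETS motif CCGGAAG was in 33.8% of them, against 15.4% of the windows of all listed genes. The YY1 motif AAGATGG was in 17.6%, against 6.64%, and the NRF1 palindrome in 18.9%, against 11.7%. The SP motif GGGCGGG was in 43.2% against 44.3%, CCAAT in 40.5% against 37.1% and TATAAA in 6.76% against 7.67%. The motif TCAAGGTCA, bound by oestrogen-related receptors, was in 0 of 74 windows and in 0.259% of those of all listed genes. Both strands were searched, and in 1 window matches of different motifs overlapped. Between the subunits, NRF1 matches were in 23.4% of large-subunit and 11.1% of small-subunit windows, and ETS matches in 29.8% and 40.7%.

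Genes with and without a match had similar median log2 ratios, and the difference was not tested. The median was -0.25 in 14 genes with an NRF1 match and -0.20 in 54 without. It was -0.19 in 25 genes with an ETS match and -0.26 in 43 without, and -0.20 in 13 genes with a YY1 match and -0.25 in 55 without. Of the factors themselves, Gabpa had 1189 and 1236 normalized counts in KO libraries and 1424 and 1363 in WT libraries, and Nrf1 had 410 and 386 in KO libraries and 387 and 389 in WT libraries. Neither passed the FDR.

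**Figure D4:**
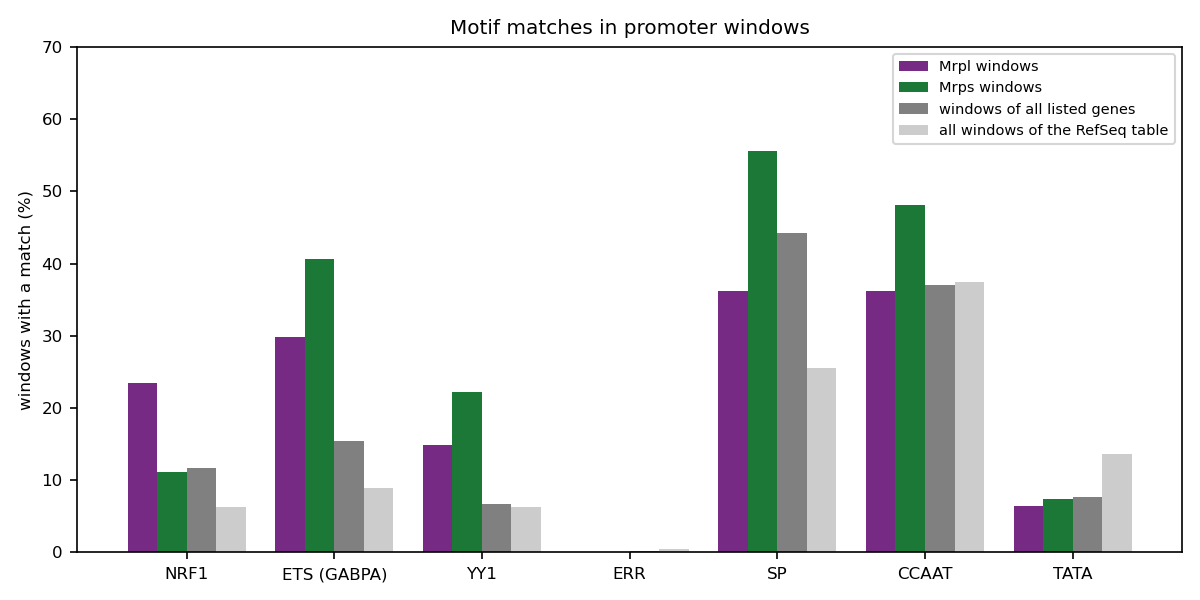
Share of promoter windows, in percent, with a match to each of 7 motifs, for windows of Mrpl genes, Mrps genes, all listed genes and all genes of the RefSeq table. The ETS and YY1 bars of both subunits stand above those of all listed genes, and the SP, CCAAT and TATA bars do not in both.

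Other genes of the mitochondrial translation machinery also had log2 ratios below 0 in most cases, and some passed the FDR. Of 17 genes listed for translation factors and related proteins, 5 fell and 0 rose past it, with a median log2 ratio of -0.23. Over all listed genes 1.7% were lower past it. The list also holds proteins that are not translation factors, Letm1 among them. Gfm1, an elongation factor of mitochondrial translation, had 2065 and 1906 normalized counts in KO libraries and 3326 and 2945 in WT libraries, 1.58-fold lower with an FDR of 0.00142 in the authors' deposited table. Taco1, an activator of the translation of a cytochrome oxidase subunit, had 914 and 860 in KO libraries and 1551 and 1341 in WT libraries, 1.63-fold lower with an FDR of 0.00168 in the authors' deposited table. Neither gene's groups overlapped, and Taco1 alone of the 5 also passed limma, with an adjusted p of 0.046. That call was lost without robust moderation (adjusted p 0.0623), under total counts with and without the 20 most abundant genes (adjusted p 0.0646 and 0.0518), without WT library 1 (adjusted p 0.169) and without WT library 2 (adjusted p 0.0848), while its log2 difference was below 0 throughout these limma fits.

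Tufm, the elongation factor that brings charged tRNA to the mitochondrial ribosome, had 2729 and 2890 normalized counts in KO libraries and 4372 and 4213 in WT libraries, with an FDR of 0.00268 in the authors' deposited table. Letm1, an inner-membrane protein, was 1.48-fold lower with an FDR of 0.0099 in the authors' deposited table. Gfm2, which acts in recycling the ribosome, was 1.44-fold lower with an FDR of 0.0276 in the authors' deposited table. The KO and WT libraries of these 3 genes did not overlap. For the 17 genes of this list the medians relative to WT were -0.25 and -0.18 for KO libraries 1 and 2, closer together than those of the 77 ribosomal genes.

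Of 30 factors for assembly of the mitochondrial ribosome, 0 passed the FDR, 28 had a log2 ratio below 0 and the median was -0.25. Of 19 genes for mitochondrial tRNA synthetases and related enzymes, 0 passed, 18 were below 0 and the median was -0.28. Lars2 in that list had 3710 and 2739 normalized counts in KO libraries and 3089 and 15323 in WT libraries, with WT library 2 standing far from the rest. Of 27 genes for mitochondrial transcription and RNA processing, 0 passed and the median was -0.12. The 6 further proteins of the mitochondrial ribosome with other names had log2 ratios of -0.37 to -0.13, among them Dap3 with 1187 and 1182 normalized counts in KO libraries and 1417 and 1601 in WT libraries. The list of 17 regulators of mitochondrial content includes Prmt7, the gene targeted in KO. In that list Perm1, a muscle regulator of mitochondrial genes, fell to 4503 and 3811 normalized counts in KO libraries, against 6628 and 6035 in WT libraries (FDR 0.00279 in the authors' deposited table). Myc, a transcription factor that drives growth, rose to 240 and 252 in KO libraries, against 140 and 135 in WT libraries (FDR 0.0347 in the authors' deposited table). Neither passed limma, with adjusted p of 0.076 for Perm1 and 0.0547 for Myc.

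**Figure D5:**
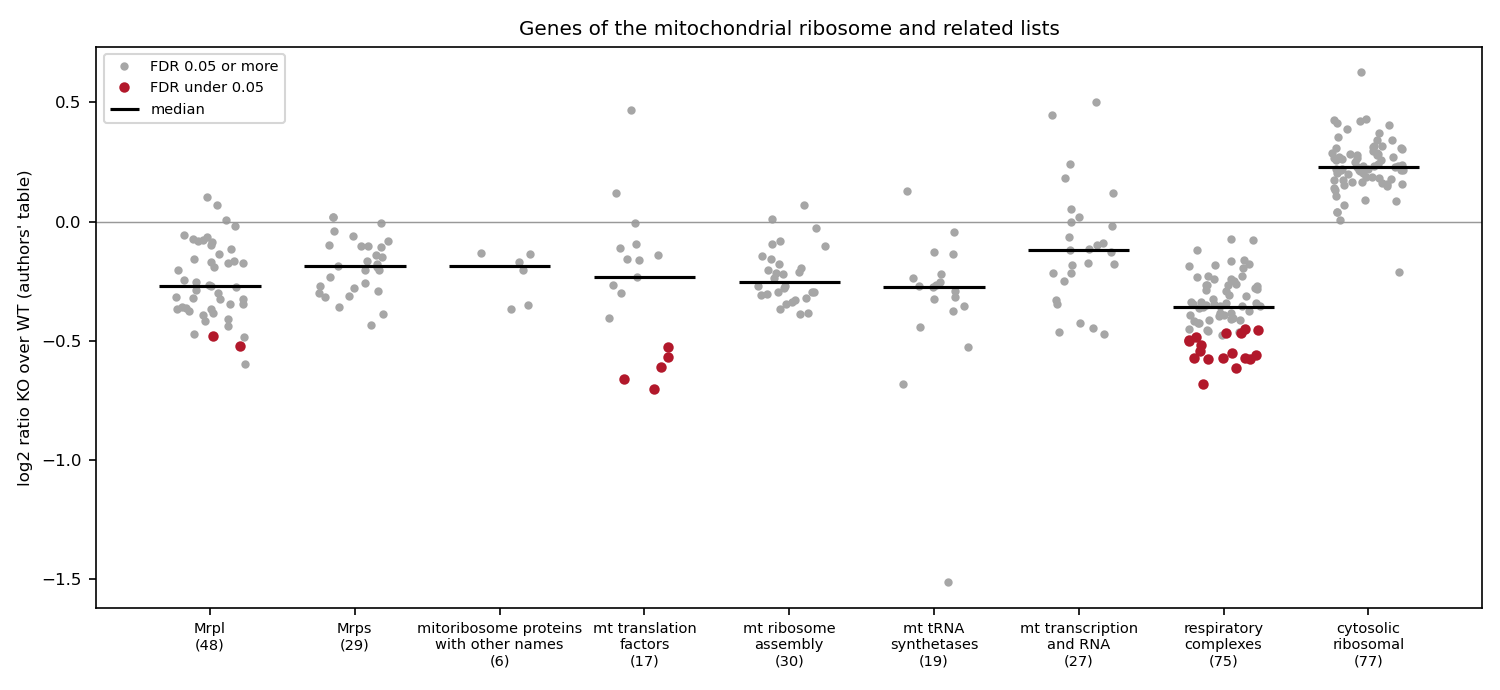
Log2 ratio of KO over WT in the authors' deposited table for genes of the large and small subunit and of 7 related lists, with the number of genes below each name, genes past an FDR of 0.05 in red and bars at the medians. The medians lie between -0.12 and -0.36 for the mitochondrial lists and at 0.23 for cytosolic ribosomal proteins.

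Set beside the most similar lists, the mitochondrial ribosomal genes stood between the respiratory complexes and the cytosolic ribosome. Of 75 genes for respiratory complexes, 18 fell past the FDR and the median log2 ratio was -0.36, with -0.55 and -0.19 for KO libraries 1 and 2. The 77 cytosolic ribosomal protein genes had 0 called and a median of 0.23, with 76 above 0. Their medians were 0.0075 and 0.42 for KO libraries 1 and 2, and KO library 1 was below KO library 2 for all 77. The gap between the KO libraries therefore had the same sign in the mitochondrial and the cytosolic ribosomal genes, while their medians against WT had opposite signs. The differences between these lists were not tested.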

How the data were processed

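Illumina libraries were made from Trizol-extracted RNA of frozen tibialis anterior, per the labels' protocols. Coordinates are in mm10, per the submitters' processing notes. The aligner, counter and annotation were not given in the sources used here. For each gene the authors deposited 1 mean signal per genotype, in normalized read counts, with log2 ratio, p-value and FDR, and the table's name credits DESeq. 2 exported pathway tables were not used.

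Each mean was solved for whole counts. Of the low values, 6.33% in KO and 7.67% in WT were multiples of a single step, and 100% of 2 steps, with 1 solution for all 14617 genes. The call is the authors' FDR under 0.05. The planned second fit was limma 3.58.1 (R 4.3.3; log2 of normalized count plus 1, mean of at least 10, trend, robust, KO minus WT, two-sided, Benjamini-Hochberg over 14053 genes, 2 residual degrees of freedom), which understates changes of low genes. Scripts were tested on simulated data. Lengths and strands came from GENCODE M21, promoters from RefSeq.

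Named genes were those past the FDR, the 10 lowest and 10 highest log2 ratios (mean of at least 50), the 3 highest and 3 lowest levels, called genes of 6 related lists and overlapping genes. Genes named by structural role, promoter neighbour or marker list, and those singled out for their values (Mrps36, Mrpl9, Lars2, Myh4, Mybpc2, Kdr, the Y-linked genes), fall outside this rule and were chosen after their values were seen. Members and lists were chosen with earlier results of these data known.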

Additional observations from a re-analysis of the deposited data

How the results depend on the processing

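Of the calls, the count of 2 mitochondrial ribosomal genes past the FDR became 0 in limma and in limma with a pseudocount of 0.5 or 5, no filter, a mean of at least 50, no robust moderation, voom, total counts, upper quartile or total counts without the 20 most abundant genes. At an unadjusted p under 0.05, limma had 28 genes lower. With 1 library left out the count was 0 to 11, with 11 without KO library 2; a lone library is then assumed to vary like the others. The median of -0.23 ranged over -0.37 to -0.10 with 1 library left out. Under total counts, upper quartile and total counts without the 20 most abundant genes it was -0.19, -0.19 and -0.12. The last scaling moved the median of all genes to 0.12, and relative to that median the set stood at -0.24. The subunit difference was -0.10 to -0.054 with 1 library left out and -0.11 over transcripts above 1000 bases. The 49 genes without overlap became 32 under total counts without the 20 most abundant genes, and 49 to 76 with 1 library left out. Fewer libraries make an overlap less likely. Without KO library 1 the count was 49, where 38.6% of all listed genes were below both WT libraries. Without KO library 2 it was 76, where 38.3% were. For the other settings the share over all listed genes was not computed. Voom, the medians relative to all genes and the length limit were chosen after seeing the data.

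In the alternatives run, signs reversed for some named ribosomal genes near 0, none of them called. Under total counts without the 20 most abundant genes the log2 difference was 0.031 for Mrps21, 0.050 for Mrpl24, 0.071 for Mrps28, 0.072 for Mrpl54, 0.098 for Mrps18c, 0.0089 for Mrps6 and 0.037 for Mrpl48. Under total counts the log2 difference was 0.010 for Mrps28, 0.012 for Mrpl54 and 0.038 for Mrps18c. Under upper quartile the log2 difference was 0.0026 for Mrps28, 0.0039 for Mrpl54 and 0.030 for Mrps18c. Under limma with its stated settings, pseudocount 5, no filter, mean of at least 50 and no robust moderation the log2 difference was -0.0051 for Mrpl36 and -0.012 for Mrps15. Under pseudocount 0.5 the log2 difference was -0.0052 for Mrpl36 and -0.012 for Mrps15. Under limma voom the log2 difference was -0.0064 for Mrpl36 and -0.013 for Mrps15. With 1 library left out the limma difference ranged over -0.34 to 0.18 for Mrps21, -0.17 to 0.048 for Mrpl24, -0.18 to 0.10 for Mrps28, -0.30 to 0.22 for Mrpl54, -0.16 to 0.13 for Mrps18c, -0.19 to 0.18 for Mrpl36, -0.32 to 0.29 for Mrps15, -0.14 to 0.17 for Mrps17, -0.18 to 0.29 for Mrpl52, -0.088 to 0.29 for Mrpl23, -0.40 to 0.092 for Mrpl42 and -0.22 to 0.076 for Mrpl48. Among these, the difference without WT library 2 was 0.0013 for Mrps21, 0.084 for Mrpl54 and -0.014 for Mrpl36, and without WT library 1 it was -0.087 for Mrps17 and -0.043 for Mrpl23. Over all named genes and alternatives, 383 values kept direction and side of the threshold, 110 kept direction but no longer passed, 6 newly passed and 47 reversed. The cause was not tested.

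No paired analysis was possible because the recovered libraries carry no replicate numbers. Depth of 22629288 to 24814798 counts left no ribosomal gene with fewer than 310 counts in a library, and 2 libraries per genotype limit the precision of every test.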
